A study of Mus musculus with 4 samples.

Results

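The genes described here are those of the brush border and of the actin filaments beneath it: villin, espin, plastins, ezrin and its relatives, the Eps8 family, the cadherins and scaffold of the microvillus tip, myosins and their light chains, alpha-actinins, subunits of the Arp2/3 complex, tropomyosins, cofilins, gelsolin and the beta-thymosins. They were chosen by symbol alone, without regard to their values, and numbered 66 of the 14519 genes in the deposited table. Epithelial cells of the mouse colon were sorted by 2 fluorescent reporters and their RNA was measured. The Reg4+ DCS cells were sorted on Reg4-dsRed and are the deep crypt secretory cells, a mucus-making cell at the base of the colonic crypt. The Lgr5+ cells were sorted on Lgr5-GFP and include the stem cells of the same crypt base. Each population had 2 libraries, which the design text calls biological replicates, so that every comparison below rests on 2 libraries against 2. The labels give no age, sex or strain of the mice, and each population is defined only by the reporter that drove its sort.

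Microvilli are finger-like protrusions of the apical membrane, each held up by a bundle of parallel actin filaments. Villin, espin and plastin tie the filaments together, class 1 myosins and ezrin tie the bundle to the membrane, and cadherins link the tips of neighbouring microvilli so that they pack into a brush border. The bundle is rooted in a terminal web of myosin II and other proteins, and the same cortical actin is cut, capped and rebuilt when a secretory cell releases its granules. Absorptive cells, tuft cells and crypt base cells all carry microvilli, though of different number and form.

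Levels are in RPM, the reads of a gene after each library is brought to a sum of 1000000. CEL-seq, the method used, reads only the 3′ end of a transcript, so that a value does not grow with transcript length. The reads recovered from the table came to 7414264 and 5448260 in the Reg4+ DCS libraries and 5205723 and 7955340 in the Lgr5+ libraries. Marker genes followed the labels. In Reg4+ DCS cells 10 of 10 goblet and DCS markers were called higher, where 7.18% of all tested genes were. Of the stem markers 7 of 8 were called lower, where 26.9% of all tested genes were. These lists include Reg4 and Lgr5, the genes whose reporters drove the sort. The goblet and DCS markers alone took 216806 and 145365 RPM of the Reg4+ DCS columns, against 7204 and 2841 RPM of the Lgr5+ columns. The first Lgr5+ library stood apart from the second in markers of other epithelial cells. Tuft cell markers (10 of 12 listed in the table) summed to 3.72 and 4.34 RPM in Reg4+ DCS and to 1195 and 358 RPM in Lgr5+ replicates 1 and 2, and absorptive cell markers (10 of 10) to 514 and 616 RPM in Reg4+ DCS and 1254 and 287 RPM in Lgr5+ replicates 1 and 2. Because of this the called members described below are given with their values in the single libraries and, Msn aside, with the range of the fold without any 1 library. Enteroendocrine markers (7 of 8 in the table) summed to 27.1 and 40.8 RPM in Reg4+ DCS and 90.5 and 51.9 RPM in Lgr5+ libraries. Of the smooth muscle and stroma markers 5 of 13 were in the table, and their summed level was at most 5.76 RPM in any library. Acta2 and Col1a1 were listed at 0 in the Reg4+ DCS columns. Des was at 1.79 and 1.45 RPM there and at 0 in the Lgr5+ columns, and Tagln and Vim were above 0 in every library.

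As a whole the 66 genes took a like share of the RNA in both populations, at 1.14% and 1.12% of the reads in Reg4+ DCS and 1.13% and 0.916% in Lgr5+ libraries. Within that share the makeup differed. The severing protein gelsolin (Gsn), thymosin beta 10 (Tmsb10), the granule motor Myo5c and tropomyosin 4 (Tpm4) rose in Reg4+ DCS cells. Each of these rises but that of Gsn lost its call when some library was left out. The membrane linker radixin (Rdx), the motor Myo19 and plastin 3 (Pls3) fell, under both scalings tried with limma. The linker moesin (Msn) was also called lower under both, but it was listed at 0 in the Reg4+ DCS columns. What such a 0 stands for was not tested. Msn, Myo19 and Pls3 entered the test through the Lgr5+ libraries alone, and Myo19 and Pls3 lost the call without Reg4+ DCS replicate 1. Of 13 genes of the brush border core 4, namely Eps8, espin (Espn), harmonin (Ush1c) and the motor Myo7b, were called lower on the deposited scale (30.8%, where 26.9% of all tested genes were) and not under the other scaling. The other 9, villin (Vil1), plastin 1 (Pls1), ezrin (Ezr) and the motors Myo1a and Myo1d among them, passed the test in neither direction on the deposited scale.

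Of the 66 genes 49 had at least 5 RPM in at least 2 libraries and were tested with limma on log2(RPM + 1), with Benjamini-Hochberg adjustment over all 10183 genes tested. At an adjusted p under 0.05, 4 were called higher in Reg4+ DCS cells (8.16% of those tested, where 7.18% of all tested genes were), and 14 were called lower (28.6%, where 26.9% of all tested genes were). These shares lie near those of all genes, so the counts are not a result about the members. Without Reg4+ DCS replicate 1 the calls were 2 higher and 3 lower, without Reg4+ DCS replicate 2 they were 2 and 10, without Lgr5+ replicate 1 they were 4 and 6, and without Lgr5+ replicate 2 they were 3 and 14. Both libraries of Reg4+ DCS lay above both of Lgr5+ for 8 members (16.3%, against 16.1% of all tested genes) and below both for 27 (55.1%, against 56.2%). An RPM is a share of its library, and on that scale the middle of all 10183 genes lay at a log2 fold change of −0.47. The median of the tested members was −0.32. Median-of-ratios scaling, called rescaling below, divides each library by 1 factor so that the middle gene does not move, and it brought these medians to 0.02 and 0.18. On that scale 9 members were called higher (18.4%; 15.6% of all tested genes) and 5 lower (10.2%; 12.7% of all tested genes). All 4 higher calls held under it, and 5 of the 14 lower ones did. Among those 5, Msn, Myo19 and Pls3 passed the filter through the Lgr5+ libraries alone. The other 9 lower calls, of Cfl1, Eps8, Espn, Myl12b, Myo6, Myo7b, Myo9b, Tpm1 and Ush1c, were not made after rescaling. Arpc5, Myl12a, Myo10, Myo1d and Pdzk1ip1 were called higher after rescaling but not on the deposited scale. In a bulk sample, fewer cells that express a gene and less of its RNA in each cell cannot be told apart.

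**Figure D1:**
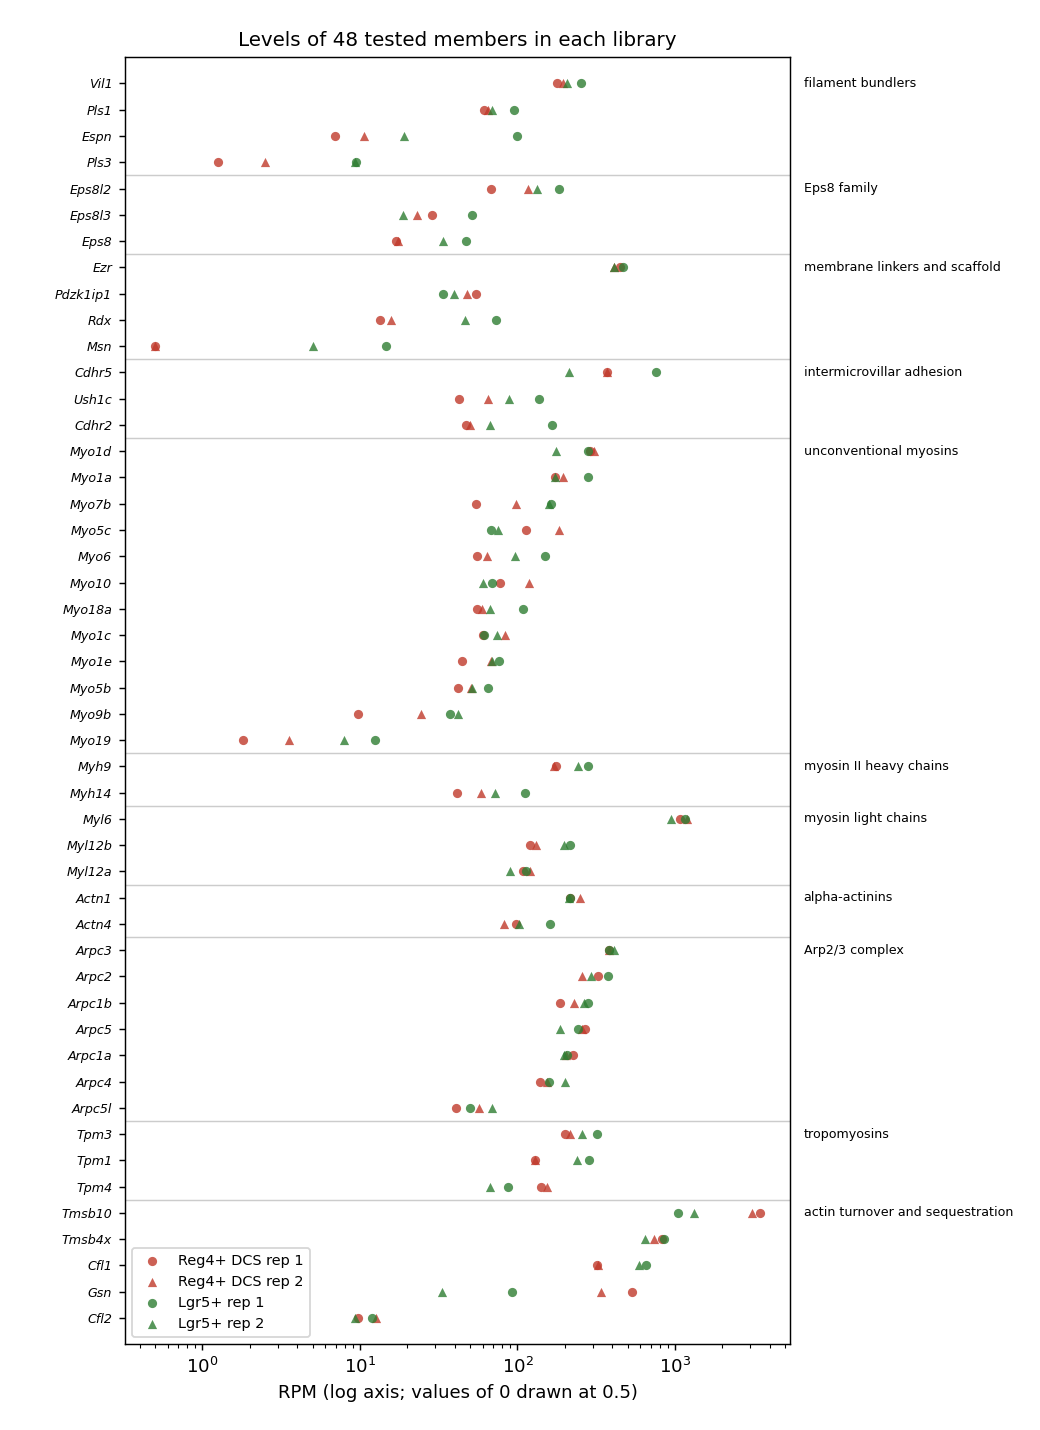
RPM of 48 of the 49 tested members in each of the 4 libraries (log axis), grouped by role; red marks are Reg4+ DCS and green marks Lgr5+ libraries, circles replicate 1 and triangles replicate 2, and the 2 values of 0 (Msn) are drawn at 0.5. Tmsb10 and Gsn lie to the right in both Reg4+ DCS libraries, Rdx and Pls3 to the left, while those of Ezr, Myl6 and Arpc3 overlap.

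**Figure D2:**
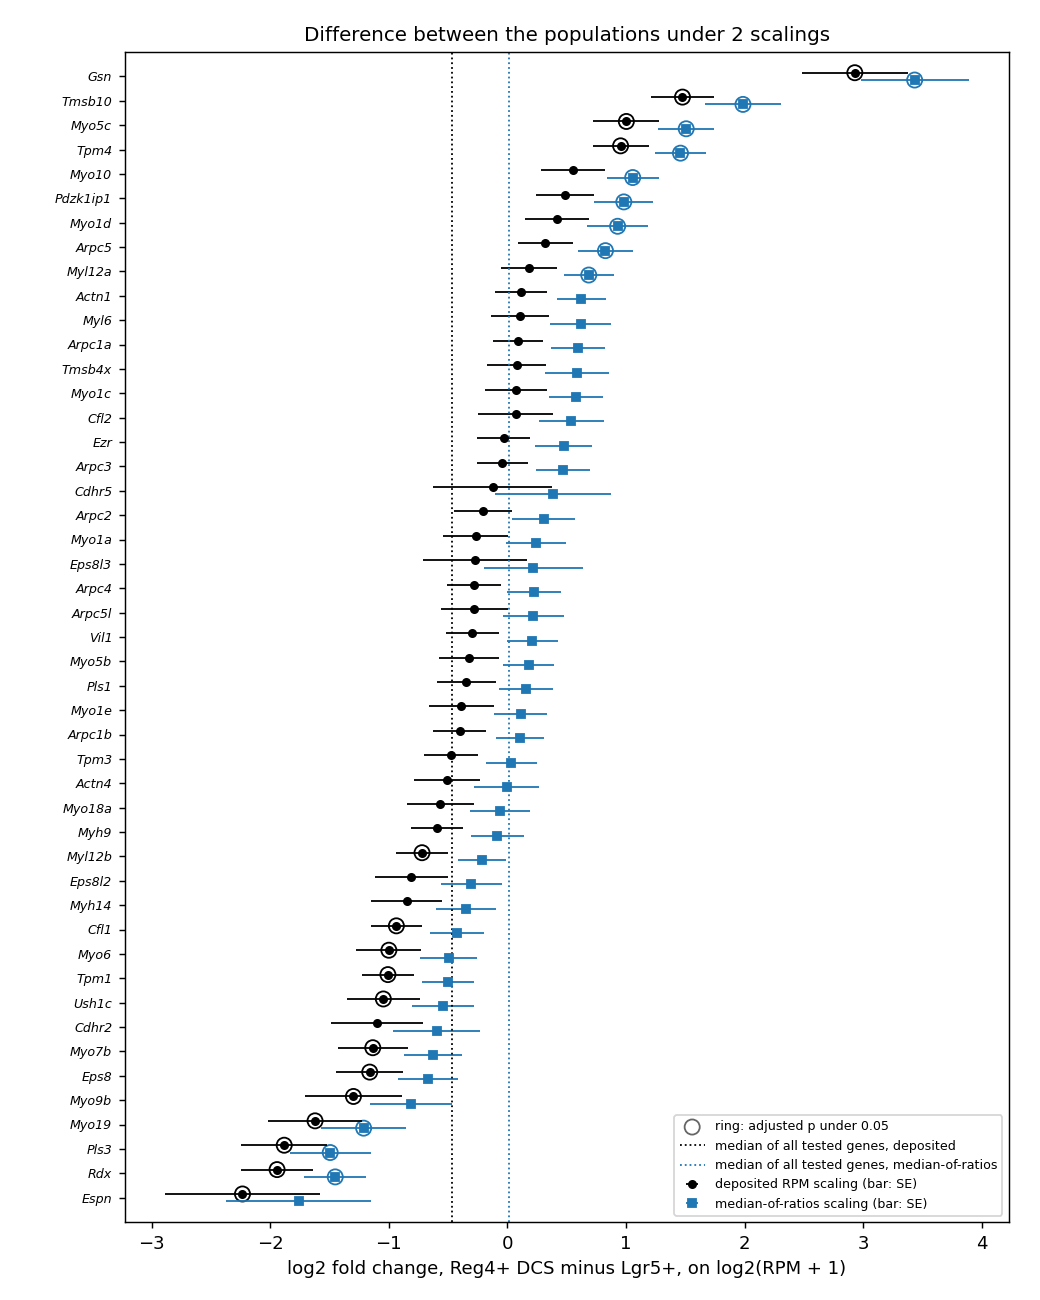
Log2 fold change (Reg4+ DCS minus Lgr5+, on log2(RPM + 1)) of 47 of the 49 tested members, Msn not among them, with bars for the SE, on the deposited scale (black) and after median-of-ratios scaling (blue). Rings mark an adjusted p under 0.05 and dotted lines the median of all tested genes, at −0.47 and 0.02. Gsn, Tmsb10, Myo5c and Tpm4 are ringed at the top on both scales, and Myo19, Pls3 and Rdx at the bottom. Myo19 and Pls3 passed the filter through the Lgr5+ libraries alone.

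The promoters of 4 of these genes are shown as RefSeq gives them for GRCm38.p6, each with 250 bases before the transcription start and 50 from it, 5′ to 3′ on the gene's strand. Gsn (chr2:35256109-35256408, plus strand) and Tpm4 (chr8:72135038-72135337, plus strand) are among the genes that rose. Rdx (chr9:52046900-52047199, plus strand) is among those that fell, and Vil1 (chr1:74409134-74409433, plus strand) is of the microvillus core. Capitals mark CAGCTG, an E-box of the kind bound by basic helix-loop-helix factors, or the CArG box, CC and GG around 6 bases of A or T, which serum response factor binds in many genes of the actin cytoskeleton.
Gsn: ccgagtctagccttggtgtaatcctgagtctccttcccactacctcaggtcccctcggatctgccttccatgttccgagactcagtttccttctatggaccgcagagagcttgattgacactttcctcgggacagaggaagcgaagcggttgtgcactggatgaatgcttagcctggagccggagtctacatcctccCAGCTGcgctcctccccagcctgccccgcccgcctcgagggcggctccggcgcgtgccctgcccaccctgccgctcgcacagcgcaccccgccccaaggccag
Tpm4: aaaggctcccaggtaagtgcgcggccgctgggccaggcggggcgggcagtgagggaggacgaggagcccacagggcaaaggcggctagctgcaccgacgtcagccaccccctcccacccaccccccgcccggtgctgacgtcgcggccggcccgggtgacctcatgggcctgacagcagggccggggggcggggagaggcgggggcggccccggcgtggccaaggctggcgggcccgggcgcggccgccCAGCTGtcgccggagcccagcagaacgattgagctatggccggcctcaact
Rdx: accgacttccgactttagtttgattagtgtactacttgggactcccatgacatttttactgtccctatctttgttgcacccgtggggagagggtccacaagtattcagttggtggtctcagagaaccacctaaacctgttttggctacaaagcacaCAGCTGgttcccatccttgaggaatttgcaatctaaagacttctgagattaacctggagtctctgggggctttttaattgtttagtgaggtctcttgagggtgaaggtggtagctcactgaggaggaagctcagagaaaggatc
Vil1: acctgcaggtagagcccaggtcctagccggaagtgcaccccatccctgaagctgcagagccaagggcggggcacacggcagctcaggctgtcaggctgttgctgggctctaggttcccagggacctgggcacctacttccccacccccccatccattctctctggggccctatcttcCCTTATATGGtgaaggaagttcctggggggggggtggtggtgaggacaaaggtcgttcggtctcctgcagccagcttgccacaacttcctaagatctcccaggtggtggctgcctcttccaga
CAGCTG began at base −53 from the start in Gsn, at −1 in Tpm4 and at −94 in Rdx, which moved the other way. The CArG box of Vil1 began at −73. Each window is the one nearest to the annotated start of its gene. The windows of Tmsb10 and Myo5c, the other genes that rose, are not shown and held no CAGCTG. Searched on both strands of all 32851 windows, CAGCTG was found in 16.3%, and in 23.75% of the 80 windows that belong to 60 members. The CArG box was found in 1.63% of all windows and in 6.25% of the members' windows, those of Arpc4, Myl6, Myl7, Myo1e and Vil1. Of these, Myl7 was too low to test and the others did not pass. The related E-box CAGATG stood in 17.2% of all and 11.25% of the members' windows, and TATAAA in 13.6% and 5%. These matches describe letters in a window and were set against no binding data.

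Gelsolin (Gsn, chromosome 2, 35256380 to 35307892 in mm10), a calcium-activated protein that severs actin filaments and caps the ends, changed the most among the members that rose. It had 537 and 341 RPM in the Reg4+ DCS libraries, against 92.2 and 33.1 RPM in the Lgr5+ libraries. Both Reg4+ DCS libraries lay far above both Lgr5+ libraries, which themselves differed 2.79-fold. The means were 439 ± 139 RPM in Reg4+ DCS and 62.6 ± 41.8 RPM in Lgr5+ cells (SD, n = 2 each), a fold of 7.01 that ranged from 4.76 to 13.3 without any 1 library. On the log2 scale Gsn rose by 2.93 (SE 0.45, limma adjusted p = 0.00249; 3.43 and 0.00131 after rescaling). Of the 4 members called higher it was the 1 that passed without each of the 4 libraries in turn (adjusted p up to 0.0384).

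A close relative that the symbol rule did not take, scinderin (Scin), also a calcium-dependent severing protein, moved with it. Scin stood at 534 and 395 RPM in Reg4+ DCS and 14.98 and 11.2 RPM in Lgr5+ libraries (log2 change 5.04, SE 0.26, adjusted p = 0.000115). The groups did not overlap, and the call held without any 1 library. Villin belongs to the same superfamily, as does advillin (Avil), which marks tuft cells. Avil had 1.16 and 0.704 RPM in Reg4+ DCS and 137 and 55.4 RPM in Lgr5+ libraries. Gsn and Scin together made up most of the summed RPM of Gsn, Scin, Vil1, Avil and Capg in Reg4+ DCS cells. In these libraries Gsn held 42.7% and 36.4% and Scin 42.5% and 42.2% of that sum. The Lgr5+ libraries had 17.5% and 10.2% for Gsn and 2.85% and 3.46% for Scin. Vil1 held 14.2% and 20.7% of that sum in Reg4+ DCS and 48.1% and 64.0% in Lgr5+ libraries. Such a share within a family is the same under any scaling of the library. With 2 libraries against 2, an exact two-sided permutation test cannot give a p below 0.333, so the shares are given without a test.

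Thymosin beta 10 (Tmsb10, chromosome 6, 72957347 to 72958748), a small peptide that holds actin monomers out of filaments, was the most abundant member. It had 3473 and 3077 RPM in Reg4+ DCS libraries and 1051 and 1313 RPM in Lgr5+ libraries. The groups were well apart, with 3275 ± 281 RPM in Reg4+ DCS and 1182 ± 185 RPM in Lgr5+ cells (SD, n = 2 each). Its fold was 2.77, from 2.49 to 3.12 without any 1 library, and on the log2 scale 1.48 (SE 0.26, adjusted p = 0.00467), a call lost without Reg4+ DCS replicate 1 (0.0648). Its sister Tmsb4x, the other common monomer-holding peptide, showed 829 and 741 RPM in Reg4+ DCS and 855 and 643 RPM in Lgr5+ libraries. These values interleaved, and Tmsb4x did not pass (log2 change 0.08, SE 0.25, adjusted p = 0.823). Tmsb10 was thus 4.19 and 4.15 times Tmsb4x in the Reg4+ DCS libraries and 1.23 and 2.04 times in the Lgr5+ libraries. Tmsb15b1 and Tmsb15l, near-identical neighbours on chromosome X whose reads may be split or shared, were at most 0.960 RPM in any library.

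Cofilin 1 (Cfl1), the main nonmuscle protein that cuts and takes apart old filaments, had 322 and 325 RPM in Reg4+ DCS libraries and 653 and 588 RPM in Lgr5+ libraries. It was lower in both Reg4+ DCS libraries, 1.92-fold (1.82 to 2.02 without any 1 library), and fell by 0.94 on the log2 scale (SE 0.22, adjusted p = 0.0138). After rescaling the change was −0.43 and not called (adjusted p = 0.196), and it was also lost without Reg4+ DCS replicate 1 (0.0899) or 2 (0.0646). Destrin (Dstn), a close relative with a like activity that was picked out after its values were seen, went the other way, at 1073 and 1184 RPM in Reg4+ DCS and 609 and 489 RPM in Lgr5+ libraries (log2 change 1.04, SE 0.24, adjusted p = 0.0129; 2 of the 4 leave-outs kept the call). Destrin so made up 76.4% and 77.8% of the summed RPM of both cofilins and destrin in Reg4+ DCS libraries, against 47.8% and 45.0% in Lgr5+ libraries. Cfl2, the muscle-type cofilin, was low, with 9.76 and 12.7 RPM in Reg4+ DCS and 11.9 and 9.30 RPM in Lgr5+ libraries. Cfl1 overlaps Snx32 on the opposite strand at its 3′ end, and no source used here says whether counting used the strand. Among other members, Actn4, Arpc1b, Eps8l2, Eps8l3, Ezr, Tpm4 and Vil1 likewise overlap a gene on the opposite strand at or near the 3′ end. Arpc4 overlaps Ttll3 there on the same strand.

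Tropomyosins are coiled rods that lie along actin filaments and set which motors and severing proteins can bind. Of the 4 members Tpm4 rose, Tpm1 was called lower on the deposited scale, and Tpm3 passed in neither direction. Tpm4 (chromosome 8, 72134975 to 72153142), whose promoter is shown above, had 141 and 155 RPM in Reg4+ DCS libraries and 86.4 and 66.6 RPM in Lgr5+ libraries. Its groups were apart, 1.94-fold (1.71 to 2.22 without any 1 library; log2 change 0.95, SE 0.24, adjusted p = 0.0177). The call was lost without Reg4+ DCS replicate 1 (0.0698), Reg4+ DCS replicate 2 (0.0723) or Lgr5+ replicate 2 (0.0865), while after rescaling the log2 fold change was 1.46 (adjusted p = 0.00202). Tpm1 (chromosome 9, 67022590 to 67049406) had 129.7 and 128 RPM in Reg4+ DCS libraries and 286 and 237 RPM in Lgr5+ libraries. Again the groups were apart, now with Reg4+ DCS below (2.03-fold, 1.84 to 2.22 without any 1 library; log2 change −1.01, SE 0.22, adjusted p = 0.0111). After rescaling the fall of Tpm1 was no longer called (−0.50, adjusted p = 0.124), nor was it without Reg4+ DCS replicate 1 (0.0655). Relative to each other, which no scaling can alter, Tpm4 was 1.09 and 1.21 times Tpm1 in Reg4+ DCS and 0.302 and 0.281 times in Lgr5+ libraries. Tpm3 was at 199.6 and 214 RPM in Reg4+ DCS and 321 and 259 RPM in Lgr5+ libraries (log2 change −0.48, adjusted p = 0.132), and its share of the 3 tropomyosins was 42.4% and 43.0% in Reg4+ DCS and 46.3% and 46.0% in Lgr5+ libraries. Tpm2, a muscle tropomyosin, was listed at 0 in the Reg4+ DCS columns and stood at 0.576 and 0.754 RPM in the Lgr5+ libraries.

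Unconventional myosins are motors that carry membranes and organelles along actin, and 13 of the 19 in the table were tested. On the deposited scale 1 was called higher and 5 were called lower (7.69% and 38.5%, where 7.18% and 26.9% of all tested genes were). After rescaling 3 were called higher and 2 lower (23.1% and 15.4%, where 15.6% and 12.7% of all tested genes were). The 1 called higher was Myo5c (chromosome 9, 75232020 to 75305451), a class 5 motor known from secretory granules of exocrine cells. Myo5c had 113 and 184 RPM in Reg4+ DCS libraries and 68.0 and 75.5 RPM in Lgr5+ libraries. Reg4+ DCS lay above in both, 2.07-fold (1.58 to 2.57 without any 1 library), and on the log2 scale the rise was 1.00 (SE 0.28, adjusted p = 0.0270), lost without Reg4+ DCS replicate 2 (0.115). Myo5b, the class 5 motor of recycling endosomes whose loss causes microvillus inclusion disease, had 42.2 and 50.4 RPM in Reg4+ DCS and 65.3 and 51.3 RPM in Lgr5+ libraries, and did not pass (log2 change −0.32, adjusted p = 0.341; 0.18 after rescaling). Myo5c exceeded Myo5b by 2.69 and 3.66 times in Reg4+ DCS libraries and by 1.04 and 1.47 times in Lgr5+ libraries. Myo5a, the class 5 motor of pigment cells and neurons, was listed at 0 in the Reg4+ DCS columns and had 1.34 and 1.38 RPM in the Lgr5+ libraries.

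Class 1 myosins are single-headed motors that tie actin to membranes. Neither class 1 motor of the brush border passed on the deposited scale. Myo1a, which anchors the microvillus core to its membrane, had 173 and 194 RPM in Reg4+ DCS and 279.5 and 174 RPM in Lgr5+ libraries, and Myo1d, which can stand in for it, had 291 and 306 RPM in Reg4+ DCS and 281 and 176 RPM in Lgr5+ libraries. For Myo1a the groups overlapped (log2 change −0.27, adjusted p = 0.463; 0.24 after rescaling). For Myo1d Reg4+ DCS lay above in both libraries, and the change of 0.42 (adjusted p = 0.246) became 0.93 and was called after rescaling (0.0287). Myo1c and Myo1e, motors of membrane trafficking and endocytosis, had log2 fold changes of 0.07 and −0.39 and did not pass. Myo1c stood at 60.5 and 83.8 RPM in Reg4+ DCS and 61.5 and 74.5 RPM in Lgr5+ libraries, which overlapped, and Myo1e at 44.2 and 68.2 RPM in Reg4+ DCS and 76.3 and 68.5 RPM in Lgr5+ libraries.

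On the deposited scale the other motors fell or did not pass. Myo6, the motor that walks toward the base of the microvillus and serves endocytosis, had 55.7 and 64.0 RPM in Reg4+ DCS and 150.0 and 96.5 RPM in Lgr5+ libraries (2.06-fold lower, 1.61 to 2.51 without any 1 library; log2 change −0.999, adjusted p = 0.0255). Myo9b, an unconventional myosin, had 9.69 and 24.5 RPM in Reg4+ DCS and 37.5 and 41.9 RPM in Lgr5+ libraries (2.32-fold lower, 1.62 to 4.09 without any 1 library; log2 change −1.30, adjusted p = 0.0402). In both genes Reg4+ DCS lay below in each library. Neither fall was called after rescaling (0.165 and 0.118), Myo6 was lost without either Reg4+ DCS library or Lgr5+ replicate 1 (0.0650 to 0.151), and Myo9b was lost without Reg4+ DCS replicate 1 (0.170). Myo19, a motor of mitochondria, had 1.80 and 3.54 RPM in Reg4+ DCS and 12.5 and 7.92 RPM in Lgr5+ libraries, 3.82-fold lower in Reg4+ DCS (2.88 to 5.68 without any 1 library; log2 change −1.62, adjusted p = 0.0163; −1.21 and 0.0367 after rescaling). It passed the filter through the Lgr5+ libraries alone, was lost without Reg4+ DCS replicate 1 (0.103), was not tested without either Lgr5+ library, and overlaps Znhit3 at its 3′ end. Myo10, which builds filopodia and carries cargo to their tips, had 77.1 and 118 RPM in Reg4+ DCS and 68.8 and 60.7 RPM in Lgr5+ libraries, with Reg4+ DCS above. Its change of 0.55 did not pass (adjusted p = 0.142) but was 1.06 and called after rescaling (0.00911). Myo18a, a motor-like protein of the Golgi, had 55.2 and 59.6 RPM in Reg4+ DCS and 108 and 67.4 RPM in Lgr5+ libraries, a change of −0.56 (adjusted p = 0.147).

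Ezrin, radixin and moesin link the actin cortex to membrane proteins, and ezrin is the one typical of intestinal microvilli. Ezr (chromosome 17, 6738041 to 6782784) had 448 and 408 RPM in Reg4+ DCS libraries and 469 and 407 RPM in Lgr5+ libraries. The groups overlapped entirely (log2 change −0.03, SE 0.22, adjusted p = 0.920; 0.48 and 0.176 after rescaling). Radixin (Rdx, chromosome 9, 52047173 to 52088735), whose promoter is shown above, had 13.3 and 15.8 RPM in Reg4+ DCS libraries and 73.4 and 46.8 RPM in Lgr5+ libraries. Both Reg4+ DCS libraries lay below, 4.13-fold (3.21 to 5.04 without any 1 library), and Rdx fell by 1.94 on the log2 scale (SE 0.30, adjusted p = 0.00268; −1.45 and 0.00480 after rescaling), a call that held without any 1 library. Moesin (Msn), the linker most common in leukocytes and endothelium, was listed at 0 in the Reg4+ DCS columns and had 14.6 and 5.03 RPM in the Lgr5+ libraries. It so entered the test through the Lgr5+ libraries alone, was called lower (adjusted p = 0.00215) and is given no fold. Many genes were listed at 0 in both Reg4+ DCS columns (1641, and 8 in just 1 of them), 66 of which had at least 5 RPM in both Lgr5+ libraries, and what a 0 in these columns stands for was not tested. Leukocyte markers (6 of 8 in the table) summed to 1.70 and 1.69 RPM in Reg4+ DCS and 58.4 and 52.2 RPM in Lgr5+ libraries. Ptprc had 0 and 0 RPM in Reg4+ DCS and 40.1 and 9.55 RPM in Lgr5+ libraries. Cd74 had 1.61 and 1.52 RPM in Reg4+ DCS and 13.4 and 40.5 RPM in Lgr5+ libraries. Cd3e, Tyrobp, Laptm5 and Coro1a were at most 2.11 RPM in any library. Endothelial markers (2 of 5 in the table) summed to 0 and 0 RPM in Reg4+ DCS and 1.54 and 4.78 RPM in Lgr5+ libraries. The part of either cell type in the moesin result was not tested. Of the 3 linkers, ezrin held 97.1% and 96.3% of the summed RPM in Reg4+ DCS and 84.2% and 88.7% in Lgr5+ libraries. Pdzk1ip1, a small membrane protein that binds the brush border scaffold Pdzk1, had 54.2 and 48.2 RPM in Reg4+ DCS and 33.4 and 39.3 RPM in Lgr5+ libraries. Its Reg4+ DCS values were both above, with a log2 fold change of 0.48 that was not called (adjusted p = 0.157) and of 0.98 that was after rescaling (0.0209). Pdzk1 itself was not analysed here.

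The bundlers of the microvillus core fell or did not pass. Villin (Vil1, chromosome 1, 74409376 to 74435559), which bundles filaments and cuts them at high calcium, had 179 and 194 RPM in Reg4+ DCS libraries and 253 and 207 RPM in Lgr5+ libraries. Reg4+ DCS was lower in both, but by 1.23-fold only, which did not pass (log2 change −0.30, SE 0.22, adjusted p = 0.323; 0.21 after rescaling). Plastin 1 (Pls1), the plastin of the intestinal brush border, had 61.4 and 65.0 RPM in Reg4+ DCS and 94.9 and 68.5 RPM in Lgr5+ libraries (log2 change −0.35, adjusted p = 0.302; 0.16 after rescaling). Plastin 3 (Pls3), a plastin of many solid tissues, had 1.25 and 2.51 RPM in Reg4+ DCS and 9.41 and 9.30 RPM in Lgr5+ libraries, and so passed the filter through Lgr5+ alone. It was 4.98-fold lower (3.73 to 7.47 without any 1 library). On the log2 scale it fell by 1.88 (SE 0.36, adjusted p = 0.00659; −1.49 and 0.0130 after rescaling), was just lost without Reg4+ DCS replicate 1 (0.0501), and was not tested without either Lgr5+ library. Pls3 made up 2.00% and 3.71% of both plastins in Reg4+ DCS and 9.02% and 11.95% in Lgr5+ libraries.

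Espin (Espn, chromosome 4, 152120331 to 152152371), which makes bundles longer and stiffer in microvilli and in the stereocilia of the ear, had 6.90 and 10.5 RPM in Reg4+ DCS libraries and 99.9 and 19.0 RPM in Lgr5+ libraries. Both Reg4+ DCS values were the lower ones, but the Lgr5+ libraries differed from each other by 5.26-fold. Its fold was accordingly uncertain, 6.81-fold lower in Reg4+ DCS with all libraries, 2.18-fold lower without Lgr5+ replicate 1 and 11.5-fold lower without Lgr5+ replicate 2. On the log2 scale Espn fell by 2.23 (SE 0.65, adjusted p = 0.0320). That call was lost after rescaling (0.0646), and without Reg4+ DCS replicate 1 (0.182), Reg4+ DCS replicate 2 (0.0866) or Lgr5+ replicate 1 (0.0930). The tuft and absorptive markers, as given above, were likewise higher in Lgr5+ replicate 1. Fscn1, the bundler of filopodia, was listed at 0 in the Reg4+ DCS columns and had 2.11 and 0.629 RPM in the Lgr5+ libraries.

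Eps8 proteins cap filament ends and help to lengthen microvilli from the tip. Eps8 itself had 17.0 and 17.4 RPM in Reg4+ DCS and 47.1 and 33.4 RPM in Lgr5+ libraries, with both Reg4+ DCS values below. It was 2.34-fold lower (1.94 to 2.74 without any 1 library) and fell by 1.16 on the log2 scale (SE 0.28, adjusted p = 0.0166), a call lost after rescaling (−0.67, 0.0839) and without either Reg4+ DCS library or Lgr5+ replicate 1 (0.0521 to 0.0883). Its relatives Eps8l2, at 67.7 and 116 RPM in Reg4+ DCS and 183 and 133 RPM in Lgr5+ libraries, and Eps8l3, at 28.6 and 23.1 RPM in Reg4+ DCS and 51.7 and 18.9 RPM in Lgr5+ libraries, did not pass (adjusted p = 0.0740 and 0.645). Without Reg4+ DCS replicate 2 (0.0399) or Lgr5+ replicate 2 (0.0261) Eps8l2 was called lower.

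The tips of neighbouring microvilli are joined by the cadherins Cdhr2 and Cdhr5, which hold on to a scaffold of harmonin (Ush1c), Anks4b, Calml4 and the motor Myo7b. Cdhr5 (chromosome 7, 141269083 to 141276786) had 368 and 369 RPM in Reg4+ DCS libraries and 762 and 212 RPM in Lgr5+ libraries. The Reg4+ DCS values lay between the Lgr5+ ones, so the log2 fold change was −0.13 with all libraries (SE 0.50, adjusted p = 0.863), 0.79 without Lgr5+ replicate 1 (0.0626) and −1.05 without Lgr5+ replicate 2 (0.0132). Cdhr2 had 47.1 and 50.1 RPM in Reg4+ DCS and 165 and 67.0 RPM in Lgr5+ libraries. It was lower in both Reg4+ DCS libraries but did not pass (log2 change −1.10, SE 0.39, adjusted p = 0.0593; 0.000163 without Lgr5+ replicate 2 and 0.368 without Lgr5+ replicate 1). Both cadherins thus depended on which Lgr5+ library was used.

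The scaffold was called lower in part. Ush1c had 42.8 and 65.3 RPM in Reg4+ DCS and 138 and 88.2 RPM in Lgr5+ libraries (2.09-fold lower, 1.63 to 2.64 without any 1 library; log2 change −1.05, SE 0.31, adjusted p = 0.0332; lost without Reg4+ DCS replicate 1, 0.191, or Lgr5+ replicate 1, 0.139). Myo7b had 54.9 and 97.4 RPM in Reg4+ DCS and 164 and 159.5 RPM in Lgr5+ libraries (2.13-fold lower, 1.66 to 2.95 without any 1 library; log2 change −1.13, SE 0.30, adjusted p = 0.0213; lost without Reg4+ DCS replicate 1, 0.117). In both genes the groups were apart, and in both the fall was not called after rescaling (−0.54 and 0.154 for Ush1c, −0.63 and 0.0899 for Myo7b). Of the 2 other scaffold proteins, picked out after their values were seen, the light chain Calml4 was called lower (log2 change −0.84, adjusted p = 0.0369; 0.287 after rescaling), with 89.8 and 127 RPM in Reg4+ DCS and 212 and 172 RPM in Lgr5+ libraries, and Anks4b did not pass, with 40.4 and 52.7 RPM in Reg4+ DCS and 48.0 and 33.6 RPM in Lgr5+ libraries (0.20, adjusted p = 0.606).

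The Arp2/3 complex, myosin II and the alpha-actinins had 14 tested genes. On the deposited scale 1 of the 14 was called in either direction (7.14%, where 34.1% of all tested genes were). After rescaling 2 were called (14.3%, where 28.4% were). These groups were pooled outside the planned comparisons, so the low share describes them and is not a result about them. The Arp2/3 complex, which starts new filaments as branches of old ones, had 7 subunit genes among the members, and on the deposited scale 0 of 7 were called by limma and 0 of 7 by edgeR, with 0 of 7 by either tool at an unadjusted p under 0.05. Their log2 fold changes ran from −0.40 for Arpc1b to 0.32 for Arpc5. Arpc3, the most abundant of them, had 382 and 383 RPM in Reg4+ DCS and 382 and 408 RPM in Lgr5+ libraries, and Arpc2 had 325 and 255 RPM in Reg4+ DCS and 376 and 293 RPM in Lgr5+ libraries, so that the groups overlapped in both. Arpc5 was called higher after rescaling (0.83, adjusted p = 0.0307). By limma on the deposited scale, 2 of 2 tested myosin II heavy chains, 1 of 3 light chains and 0 of 2 alpha-actinins had an unadjusted p under 0.05. The nonmuscle myosin II heavy chains, motors of contraction, did not pass, with Myh9 at 175 and 170.4 RPM in Reg4+ DCS and 282 and 242 RPM in Lgr5+ libraries (log2 change −0.59, adjusted p = 0.0662), and Myh14 at 41.6 and 58.6 RPM in Reg4+ DCS and 112 and 71.8 RPM in Lgr5+ libraries (−0.85, adjusted p = 0.0583; 0.0139 without Lgr5+ replicate 2). The essential light chain Myl6 was abundant, at 1069.6 and 1196 RPM in Reg4+ DCS and 1165 and 946 RPM in Lgr5+ libraries, with overlapping groups (0.11, adjusted p = 0.753). Of the regulatory light chains Myl12b, at 120.1 and 131 RPM in Reg4+ DCS and 217 and 197 RPM in Lgr5+ libraries, was called lower (1.65-fold, 1.57 to 1.73 without any 1 library; log2 change −0.72, adjusted p = 0.0349; 0.475 after rescaling, and lost on leaving out each of the 4 libraries in turn, at 0.0747 to 0.149), while Myl12a, at 108 and 121 RPM in Reg4+ DCS and 114 and 89.4 RPM in Lgr5+ libraries, had a change of 0.18 (adjusted p = 0.568). These 2 are near-identical neighbours on chromosome 17, and no source used here says how reads were split between them. The alpha-actinins, cross-linkers of filaments, did not pass, with log2 fold changes of 0.12 for Actn1, at 215 and 250.4 RPM in Reg4+ DCS and 216 and 211 RPM in Lgr5+ libraries, and −0.51 for Actn4, at 97.5 and 82.6 RPM in Reg4+ DCS and 162 and 102 RPM in Lgr5+ libraries.

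**Figure D3:**
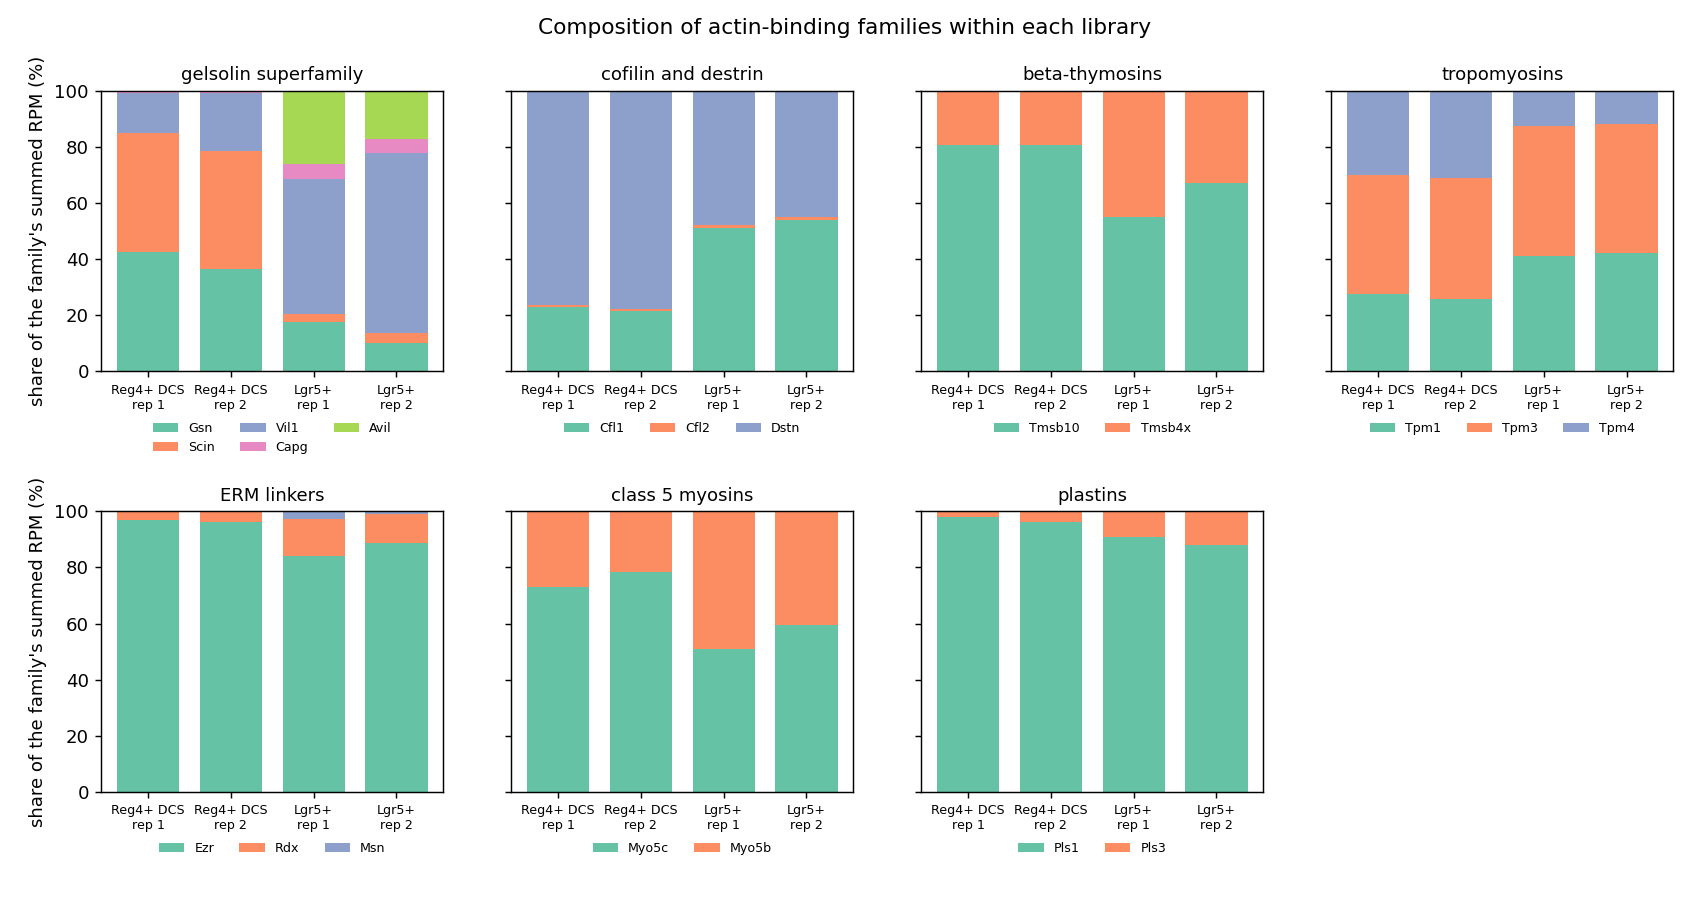
Share of each gene in the summed RPM of the genes drawn for its family (%), as stacked bars for the 4 libraries, Reg4+ DCS to the left. The 7 families were picked after the values were seen, and Scin, Avil, Capg and Dstn are relatives added to them. Gsn and Scin, Dstn, Tmsb10, Tpm4 and Myo5c hold larger shares in both Reg4+ DCS bars than in both Lgr5+ bars, and Vil1, Avil, Cfl1, Tpm1, Rdx and Pls3 smaller ones.

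Within the Lgr5+ population the members did not behave alike. Of the 49 tested, 41 had a higher value in Lgr5+ replicate 1 than in replicate 2 (83.7%, against 53.0% of all tested genes), and 6 were over 2-fold higher there: Espn by 5.26-fold, Cdhr5 by 3.59-fold, Msn by 2.90-fold, Gsn by 2.79-fold, Eps8l3 by 2.74-fold and Cdhr2 by 2.47-fold. In the other direction 0 members differed by over 2-fold. The share of all tested genes that differed by over 2-fold was not counted. In the same libraries 10 of 10 tuft markers and 10 of 10 absorptive markers in the table were higher in replicate 1 (summed level 3.34-fold and 4.36-fold), as were 9 of 10 goblet and DCS markers (2.54-fold), while 0 of 8 stem markers were. Tuft markers were at or near 0 in the Reg4+ DCS libraries, with 6 of 10 listed at 0 in both, Alox5ap and Pou2f3 among them. Of the absorptive markers Guca2a made up most of the level in Reg4+ DCS, at 339 and 505 RPM there and 211 and 67.5 RPM in Lgr5+ libraries, and was called higher. The other 9 summed to 175 and 110 RPM in Reg4+ DCS and 1043 and 219.9 RPM in Lgr5+ libraries, and Car1, Slc26a3, Fabp2 and Cyp2c55 were called lower. The part of these cells in the differences of Espn, Cdhr2, Cdhr5, Eps8l3, Gsn and Msn was not tested.

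**Figure D4:**
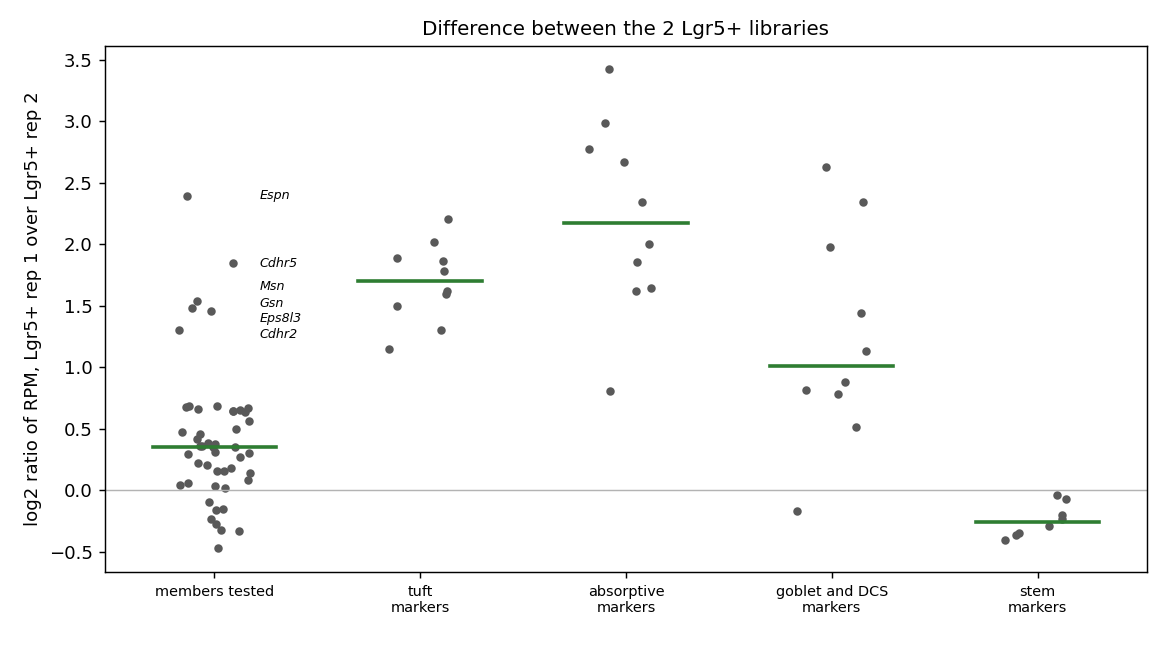
Log2 ratio of RPM in Lgr5+ replicate 1 over Lgr5+ replicate 2, with a point for each gene and a green line at the median, for the 49 tested members and for marker genes of 4 cell types. The members' median is 0.35, with the 6 labelled genes above 1, between the tuft (1.70), absorptive (2.17) and goblet and DCS (1.01) markers and the stem markers, which lie below 0.

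The remaining 17 members did not reach the filter, and the highest value among them was 9.22 RPM, for Myo9a in Lgr5+ replicate 1. They were Cdhr1, Eps8l1, Fscn1, Myh7, Myh7b, Myl4, Myl6b, Myl7, Myo1g, Myo1h, Myo3a, Myo5a, Myo7a, Myo9a, Tmsb15b1, Tmsb15l and Tpm2, among them genes of heart and skeletal muscle (Myh7, Myh7b, Myl4, Myl7, Tpm2) and of the ear and eye (Cdhr1, Myo3a, Myo7a). Of all 66 members 9 were listed at 0 in both Reg4+ DCS columns, and Myh7 was listed at 0 in both Lgr5+ columns, with 0.619 and 0.704 RPM in Reg4+ DCS. Eps8l1, an Eps8 relative, had 2.69 and 6.86 RPM in Reg4+ DCS and 2.31 and 2.89 RPM in Lgr5+ libraries.

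Other genes of the same machinery, in 6 lists of actins, activators, capping proteins, scaffolds, myosin regulators and cross-linkers, were looked at beside the members. Of 75 listed genes 67 were tested, 4 were called higher in Reg4+ DCS cells (5.97%, where 7.18% of all tested genes were) and 8 lower (11.9%, where 26.9% were). The cytoplasmic actins did not pass, with Actb at 2001 and 1510 RPM in Reg4+ DCS and 1611 and 1537 RPM in Lgr5+ libraries (log2 change 0.14, adjusted p = 0.689), and Actg1 at 2301 and 2955 RPM in Reg4+ DCS and 2903 and 2482 RPM in Lgr5+ libraries (−0.04, adjusted p = 0.917). Besides Scin, the largest rises were of Slc9a3r2, a scaffold that ties transporters to ezrin, with 28.3 and 25.7 RPM in Reg4+ DCS and 7.30 and 7.54 RPM in Lgr5+ libraries (1.73, adjusted p = 0.00341), and of Mylk, the kinase that switches on myosin II. Mylk had 15.4 and 39.6 RPM in Reg4+ DCS and 10.6 and 6.54 RPM in Lgr5+ libraries (1.47, adjusted p = 0.0395), and kept its call in 2 of 4 leave-outs. Besides Avil, which is also a tuft marker, the largest falls were of Cnn3, an actin-binding calponin, and of Flna, a cross-linker of filament networks. Cnn3 had 7.89 and 14.2 RPM in Reg4+ DCS and 180.0 and 224 RPM in Lgr5+ libraries (−4.12, adjusted p = 0.000175), and Flna had 5.99 and 13.4 RPM in Reg4+ DCS and 43.2 and 37.2 RPM in Lgr5+ libraries (−2.04, adjusted p = 0.00563). The groups were apart for each of these genes but the actins, and the calls of Scin, Slc9a3r2, Cnn3 and Flna held after rescaling and without any 1 library.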

How the data were processed

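Cells from mouse colon were sorted into Trizol and total RNA was made into CEL-seq libraries, read as 50 bp pairs on an Illumina HiSeq, per the labels' protocols. BWA 0.6.2-r126 and mm10 are named in the submitters' processing notes. Counting, annotation, strand use, molecular identifiers and filters were not given in the sources used here; without molecular identifiers, amplification copies would be counted. The authors deposited RPM for 14519 genes in 4 columns.

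In the Lgr5+ columns 100% of values were whole reads within 0.01 reads. The Reg4+ DCS columns looked like averages of 2 parts with their own scaling, decoded for 99.95% and 99.1% of genes; each was counted as 1 replicate. Called members with values above 0 had at least 10 reads per library.

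In R 4.3.3, limma 3.58.1 (lmFit, eBayes with trend) was run on log2(RPM + 1), a scale that understates changes of low genes, for genes with at least 5 RPM in at least 2 libraries, with a term for group alone and a threshold of 0.05 on the Benjamini-Hochberg adjusted p. Fold changes are Reg4+ DCS over Lgr5+; folds are ratios of mean RPM. As alternatives, edgeR 4.0.16 (quasi-likelihood) was run on the recovered reads, leaving out 129 tested genes with undecoded reads (Tmsb10 and Myl6 among them), and pseudocounts, filters, scaling, the variance trend, the replicate number as a term and each library left out were varied. The fitting and decoding were tested on simulated data. Of the members, 65 were matched to GENCODE M21 (GRCm38) for coordinates.

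Values per library are given for the microvillus core, for the 10 called members per direction with the largest log2 fold change, for the 10 most abundant members and for families called in both directions, and for the 3 partner genes per direction with the largest change, Actb and Actg1; exceptions are stated, and 1 member that is counted is not reported here by its values. The members, lists and tests were chosen with earlier results of these data known.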

Additional observations from a re-analysis of the deposited data

How the results depend on the processing

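Of 471 values of named genes under the alternatives, 384 kept direction and side of the threshold, 43 lost the call, 9 gained it and 35 changed direction; 0 of the 35 had been called on the deposited scale. Median-of-ratios scaling (factors 0.767 and 0.921 for Reg4+ DCS, 1.23 and 1.16 for Lgr5+) moved all genes called higher from 731 to 1591 and lower from 2744 to 1297, the members from 4 to 9 and from 14 to 5, and their median from −0.32 to 0.18. By its construction it shifts nearly all genes by a like amount. It turned Arpc2 (0.31), Arpc3 (0.46), Cdhr5 (0.38), Eps8l3 (0.22), Ezr (0.48), Myo1a (0.24), Myo1e (0.11), Myo5b (0.18), Pls1 (0.16), Tpm3 (0.032) and Vil1 (0.21). With edgeR, added after seeing the data, library totals gave 702 higher and 2686 lower (members 3 and 13 of 47) and turned Arpc3 (0.0086). TMM normalization in edgeR gave 1351 each way, 13.4% of the genes it tested (members 5 and 6 of 47). It put Arpc2 at 0.29, Arpc3 0.46, Cdhr5 0.079, Eps8l3 0.19, Ezr 0.34, Myo1a 0.19, Myo1e 0.17, Myo5b 0.086, Pls1 0.11 and Vil1 0.21. With TMM, edgeR called Espn lower (adjusted p = 0.0450) and Myo10 (0.0127) and Pdzk1ip1 (0.0259) higher. Leaving out 1 library, where the lone sample is taken to vary like the other group, gave 349 to 706 genes higher and 1060 to 2288 lower, and members 2 to 4 and 3 to 14, lowest for the lower calls without Reg4+ DCS replicate 1. The changes of uncalled genes then ran from −1.05 to 0.79 for Cdhr5, −0.98 to 0.43 for Eps8l3, −0.61 to 0.073 for Myo1a, −0.16 to 0.30 for Myo1c, −0.13 to 0.069 for Ezr, −0.13 to 0.28 for Tmsb4x, −0.10 to 0.24 for Cfl2, −0.092 to 0.0035 for Arpc3 and −0.043 to 0.26 for Myl6. With no filter on low values Espn (adjusted p = 0.0816), Myo9b (0.0809) and Ush1c (0.0620) were not called; with a filter of 1 RPM Myo9b (0.0504) and without a variance trend Ush1c (0.0507) were not.

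No source used here says that a shared replicate number marks a shared animal or sort. The differences between replicates 1 and 2 correlated across genes at 0.21 between the populations. With the replicate number as a block 910 genes were called higher and 3534 lower, and 4 and 18 members, with Cdhr2 (adjusted p = 0.00239), Eps8l2 (0.0144), Myh14 (0.0144) and Myh9 (0.0383) added to the lower calls. The cause of the other changes was not tested.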
